A study of Mus musculus with 10 samples.

Results

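The genes described are 9 members of the coagulation and fibrinolysis systems that endothelial cells make: Vwf, F8, Thbd, Procr, Tfpi, Plat, Plau, Plaur and Serpine2. They were taken by symbol from a table of RNA-Seq counts, and all 9 of 9 were found among its 23284 gene rows. The table holds 10 libraries from wild type C57BL/6 mice of 6 to 8 weeks, with no treatment. LN-LEC are lymphatic endothelial cells of lymph nodes (4 libraries), LN-BEC are blood endothelial cells of lymph nodes (3 libraries), and D-LEC are lymphatic endothelial cells of the diaphragm (3 libraries). Each library was made from sorted cells of many pooled mice, and the lymph node cells came from inguinal, axillary, brachial, cervical and mesenteric nodes as a pool, so that neither single mice nor single nodes can be told apart. All 3 populations were CD45-negative and CD31-positive, and PDPN (podoplanin) separated the LEC (positive) from the BEC (negative). Vessels of different calibre within a population were not separated.

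Blood that leaves a vessel clots through a cascade of serine proteases that ends in thrombin and fibrin, and plasmin later dissolves the fibrin. Endothelial cells stand on both sides of this balance. They release von Willebrand factor (Vwf), which tethers platelets and carries factor VIII (F8), the cofactor of activated factor IX. On their surface they hold thrombomodulin (Thbd) and the endothelial protein C receptor (Procr), which together let thrombin activate the anticoagulant protein C, and they make tissue factor pathway inhibitor (Tfpi), which blocks the initiation of clotting. For fibrinolysis they make tissue-type (Plat) and urokinase-type (Plau) plasminogen activators, the urokinase receptor (Plaur) and protease nexin 1 (Serpine2), a serpin that inhibits thrombin and both activators. Lymph holds clotting factors too but has no platelets in the normal state, and endothelial cells are known as the main source of factor VIII.

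The libraries held between 22429940 and 48906070 counted fragments, and the 9 genes together took 0.209% to 0.426% of each library. Levels are given as normalized counts, which are fragment counts divided by the library's size factor, as mean ± SD. The populations matched their labels: all 6 of 6 lymphatic markers (Prox1, Lyve1, Pdpn, Flt4, Reln and Mmrn1) were higher in LN-LEC and in D-LEC than LN-BEC, and all 7 of 7 blood endothelial markers (Flt1, Nrp1, Notch4, Emcn, Plvap, Sox17 and Ly6c1) were higher in LN-BEC than in either LEC. Pdpn is also the protein used in the sort. Summed markers of other cells differed between the populations. The 6 mesothelial markers summed to 717 to 2190.4 in D-LEC against 30.5 to 82.4 in LN-LEC and 26.8 to 146 in LN-BEC, and the 6 skeletal muscle markers to 933 to 1368 against 30.2 to 45.4 and 82.2 to 103. Every one of these 12 markers was called higher in D-LEC than LN-LEC, and Myh4 was at 0 in LN-BEC. The sum of 13 immediate early and stress genes, which are known to respond to tissue dissociation, was 259010 to 288372 in D-LEC, 96582 to 179987 in LN-BEC and 33288 to 91654 in LN-LEC, and it was highest in LN-LEC replicate 4 and LN-BEC replicate 3 within their populations. Tissue and these sums cannot be told apart in the D-LEC comparisons. The 9 platelet and megakaryocyte markers summed to 2663 to 2949 in LN-LEC, 2586 to 3225 in D-LEC and 1728 to 2486 in LN-BEC, most of it Itgb3 and Pf4, with Gp9 and Gp6 at 0 in LN-LEC and Gp6 at 0 in LN-BEC. The 6 B and T cell markers summed to 425 to 708 in LN-BEC, 49.3 to 73.6 in LN-LEC and 13.2 to 47.9 in D-LEC, and 6 of 6 were called higher in LN-BEC than either LEC. The 6 pericyte and smooth muscle markers summed to 5144 to 6637 in LN-BEC, 3088 to 5073 in LN-LEC and 161 to 312 in D-LEC, with 3 of 6 called higher in LN-BEC than LN-LEC, 5 of 6 in LN-LEC than D-LEC and 6 of 6 in LN-BEC than D-LEC. The 10 macrophage and monocyte markers summed to 9400.4 to 10236 in D-LEC, 5296 to 8771 in LN-LEC and 544 to 925 in LN-BEC, and Mrc1 made up most of the sum in both LEC populations. The 5 neutrophil markers in the table summed to 47.5 to 248 in LN-LEC, 95.4 to 317 in LN-BEC and 0 to 6.31 in D-LEC, where Retnlg, Csf3r and Mmp8 were at 0. The 7 fibroblast and reticular cell markers summed to 4075 to 7395, 2354 to 7949 and 2498 to 7482 in the same order. The part of RNA from these cells in the results that follow was not tested.

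Each pair of populations was compared to ask how the balance of clotting and fibrinolysis genes differs between lymphatic and blood vessels of one organ, and between lymphatic vessels of 2 organs. D-LEC and LN-BEC differ in both vessel type and organ, which cannot be told apart in that comparison. A gene was called when its adjusted p (edgeR quasi-likelihood F test, Benjamini-Hochberg over 15359 tested genes) was under 0.05. Between LN-LEC and LN-BEC, 7 of the 9 genes were called, 4 with LN-LEC above (F8, Procr, Tfpi and Plat) and 3 with LN-BEC above (Vwf, Thbd and Serpine2), where 38.2% of all tested genes were called, 19.8% with LN-LEC above and 18.4% with LN-BEC above. Between LN-LEC and D-LEC, 7 genes were called, 3 with LN-LEC above (F8, Procr and Tfpi) and 4 with D-LEC above (Thbd, Plau, Plaur and Serpine2), against a background of 45.8%, where LN-LEC was above for 24.0% and D-LEC for 21.7%. Between D-LEC and LN-BEC, 8 genes were called, 4 with D-LEC above (Plat, Plau, Plaur and Serpine2) and 4 with LN-BEC above (Vwf, F8, Procr and Tfpi), against 48.0%, where D-LEC was above for 22.4% and LN-BEC for 25.6%. The libraries of the 2 populations did not overlap for 7, 7 and 9 of the genes in these comparisons, where 44.9%, 50% and 56.1% of all tested genes did not overlap. The median absolute log2 fold change of the 9 genes was 0.59, 2.08 and 2.37, beside 0.43, 0.51 and 0.57 over all tested genes. Log2 fold changes are always LN-LEC over LN-BEC, LN-LEC over D-LEC or D-LEC over LN-BEC. The 3 comparisons share libraries in pairs, and the p-values measure the spread between these pooled libraries.

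**Figure D1:**
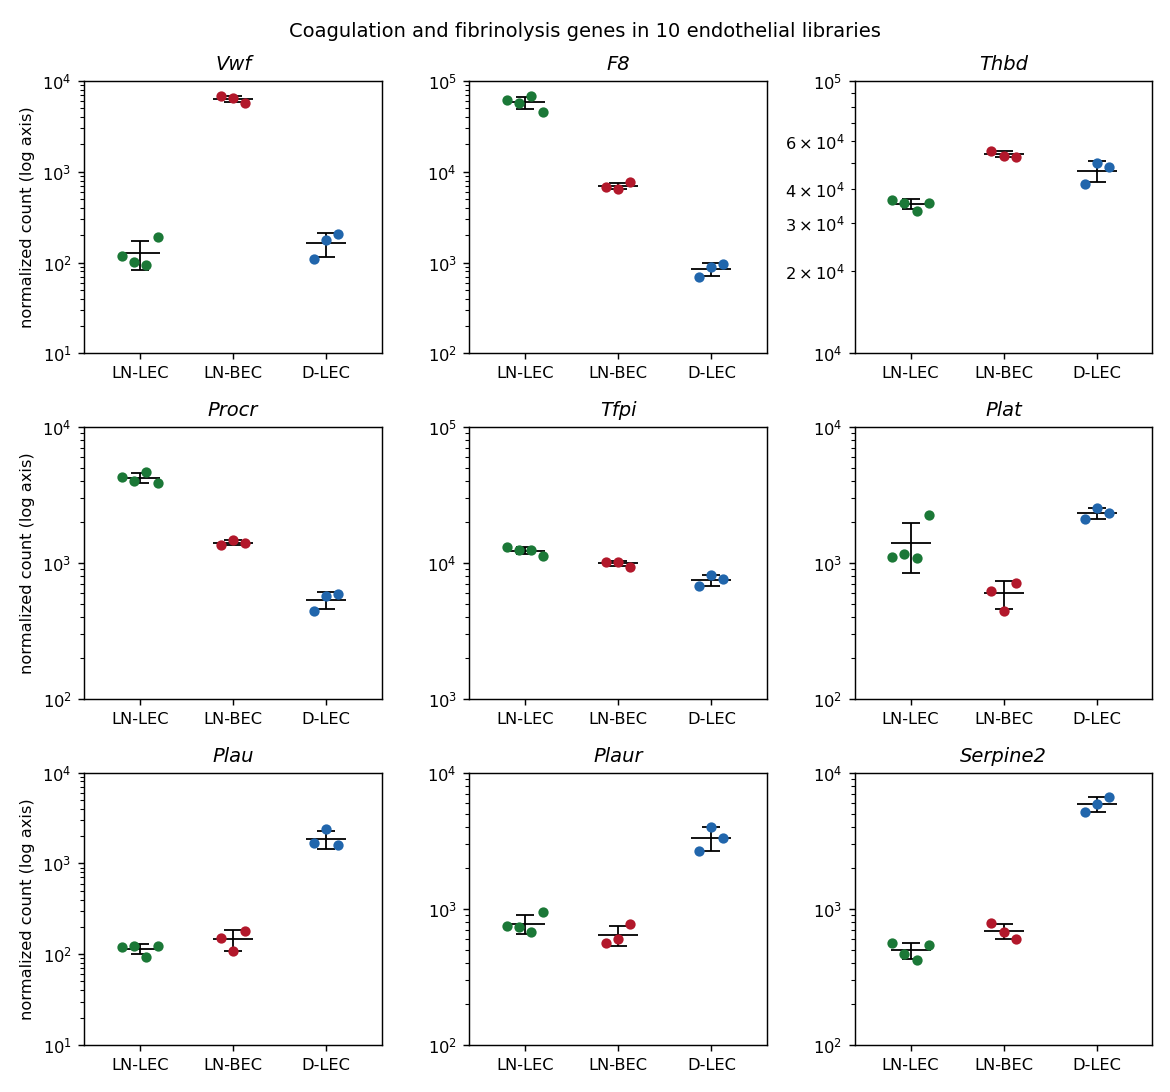
Normalized counts (log axis) of the 9 genes in each of the 10 libraries, by population. Points are libraries, in replicate order from left to right within a population, and bars are mean ± SD. Vwf is high in the 3 LN-BEC libraries, F8 and Procr step down from LN-LEC over LN-BEC to D-LEC, and Plau, Plaur and Serpine2 are high in the 3 D-LEC libraries.

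F8, which encodes factor VIII, had the largest fold change of the 9 genes. It lies on chromosome X of the mm9 build (chrX:72418056-72625380, minus strand), with 26 exon blocks and 7507 exon bases. Across LN-LEC the libraries held normalized counts of 61185, 57955, 68022 and 46001 (mean 58290.5 ± 9206, n = 4). LN-BEC had values of 6853, 6497 and 7622 (6991 ± 575, n = 3), and D-LEC had 699, 894 and 952 (848 ± 133, n = 3). The 3 ranges lay far apart, with LN-LEC highest and D-LEC lowest. F8 was 8.43-fold higher in LN-LEC than LN-BEC (log2 fold change 3.08 with SE 0.15, adjusted p = 2.9e-09). The difference between the 2 LEC populations was 69.6-fold (log2 fold change 6.12 with SE 0.18, adjusted p = 1.8e-11). D-LEC were also lower than LN-BEC (log2 fold change -3.05 with SE 0.16, adjusted p = 2.5e-09). In bulk libraries such as these, fewer cells with the transcript and less transcript per cell cannot be told apart. In the LN-BEC libraries, F8 stood at 11.8%, 11.1% and 13.1% of the LN-LEC mean, which was below Flt4 and above the other 5 lymphatic markers in each library. Flt4 was at 14.6%, 11.9% and 16.6% of its LN-LEC mean, Prox1 at 2.57%, 1.42% and 4.31%, Lyve1 at 1.45%, 1.06% and 5.89%, Pdpn at 2.72%, 0.950% and 6.23%, Reln at 1.42%, 0.942% and 5.23% and Mmrn1 at 2.50%, 1.03% and 6.66%. The part of lymphatic endothelial RNA in the LN-BEC values of F8 was not tested.

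Vwf, the platelet tether and factor VIII carrier, ran the other way between the lymph node populations. It lies on chromosome 6 (mm9, chr6:125502981-125636695, plus strand), with 52 exon blocks and 8817 exon bases. LN-BEC had values of 6842, 6424 and 5769 (6345 ± 541, n = 3). Values in LN-LEC were 119, 102, 95 and 191 (127 ± 44.1, n = 4), whereas those in D-LEC were 109.7, 178 and 205 (164 ± 49.1, n = 3). LN-BEC stood above every LEC library, and the 2 LEC populations overlapped. Vwf was 48.2-fold lower in LN-LEC than LN-BEC (log2 fold change -5.59 with SE 0.27, adjusted p = 9.2e-08) and 38.2-fold lower in D-LEC (log2 fold change -5.26 with SE 0.30, adjusted p = 2.2e-07). LN-LEC and D-LEC did not pass the test (log2 fold change -0.33 with a 95% interval of -0.94 to 0.27, adjusted p = 0.34). That result rests on LN-LEC replicate 4, the highest LN-LEC library for Vwf: without it the log2 fold change was -0.64 with an adjusted p of 0.023, and over 20 alternatives the adjusted p ran from 0.018 to 0.75. The low LEC values of Vwf lay within the range of the 7 blood endothelial markers, which differed widely among themselves. In LN-LEC, Vwf stood at 1.88%, 1.60%, 1.5% and 3.01% of its LN-BEC mean, while Sox17, Flt1, Ly6c1, Nrp1, Notch4 and Emcn ran from 0.662% to 5.04% and Plvap from 41.7% to 46.4%. Replicate 4 was also the highest LN-LEC library for Flt1, Notch4, Emcn, Plvap, Sox17 and Ly6c1, whereas Nrp1 was highest in replicate 1. In D-LEC, Vwf stood at 1.73%, 2.81% and 3.23%. Flt1, Nrp1, Ly6c1 and Sox17 ran from 0.0503% to 0.592% there, Notch4 from 3.84% to 5.51%, Plvap from 8.84% to 11.4% and Emcn from 29.8% to 42.9%. The part of blood endothelial RNA in these low Vwf values was not tested.

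**Figure D2:**
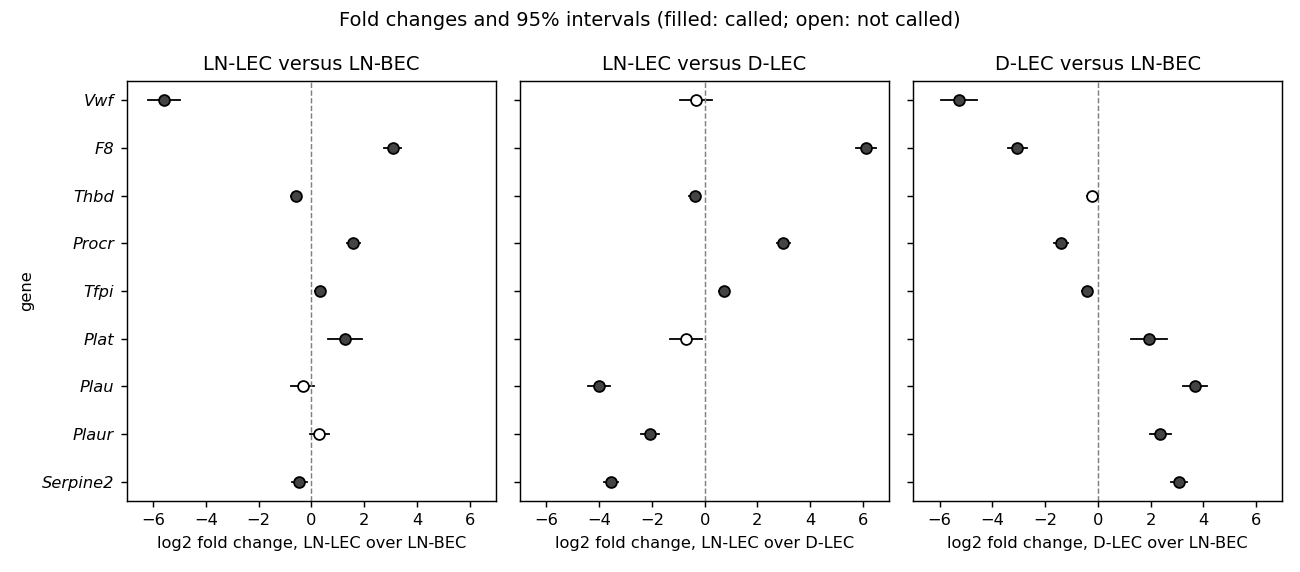
Log2 fold changes of the 9 genes with 95% intervals in the 3 comparisons, first population over second. Filled points passed an adjusted p of 0.05 and open points did not. The intervals of Vwf and Plat between LN-LEC and D-LEC and of Plau and Plaur between the lymph node populations belong to open points, as does that of Thbd between D-LEC and LN-BEC.

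Thbd, the thrombin receptor that turns thrombin towards protein C activation, was high everywhere and moved little. It is a gene without introns on chromosome 2 (mm9, chr2:148230207-148233924, minus strand), with 1 exon block of 3718 bases. In the LN-BEC libraries, values were 55386, 53269 and 52822 (53826 ± 1370.1). In D-LEC the libraries held 41924, 49897 and 48158 (46659.6 ± 4193), and in LN-LEC they held 36708, 35596, 33377 and 35629.9 (35328 ± 1399). The order was LN-BEC, D-LEC, LN-LEC, with no overlap between any of the 3 ranges. LN-LEC were lower than LN-BEC by less than 2-fold (log2 fold change -0.59 with SE 0.09, adjusted p = 1.1e-04) and lower than D-LEC (log2 fold change -0.38 with SE 0.09, adjusted p = 0.0032). The step from LN-BEC to D-LEC did not pass the test (log2 fold change -0.21 with a 95% interval of -0.42 to -0.0041, adjusted p = 0.086), although it was called by DESeq2 (adjusted p = 0.028) and by limma-voom (adjusted p = 0.049) among alternatives that ran from 0.028 to 0.26.

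Procr, the receptor that presents protein C to the thrombin and thrombomodulin complex, had the same order as F8. It lies on the same chromosome (mm9, chr2:155576953-155581214, plus strand), with 4 exon blocks and 1504 exon bases. LN-LEC had values of 4289, 4012, 4648 and 3858 (4202 ± 347). LN-BEC had values of 1346, 1474 and 1403 (1408 ± 63.8), and D-LEC had 444, 573 and 589.95 (536 ± 79.9). All 4 LN-LEC libraries were above all 3 LN-BEC libraries, which were above all 3 D-LEC libraries. Procr was 3.02-fold higher in LN-LEC than LN-BEC (log2 fold change 1.59 with SE 0.11, adjusted p = 6.6e-08) and 7.93-fold higher than D-LEC (log2 fold change 2.99 with SE 0.12, adjusted p = 2.3e-10). D-LEC were 2.63-fold lower than LN-BEC (log2 fold change -1.40 with SE 0.12, adjusted p = 3.1e-07). Thus the 2 partners of protein C activation were not arranged alike: Thbd was lowest in LN-LEC, where Procr was highest.

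Tfpi, the inhibitor of the tissue factor and factor VIIa complex, followed the order of Procr over a narrower range. It lies on chromosome 2 (mm9, chr2:84273017-84316932, minus strand), with 11 exon blocks and 3780 exon bases. In the LN-LEC libraries, values were 12996, 12476, 12406 and 11292 (12293 ± 717). Values in LN-BEC were 10132, 10231 and 9374 (9912 ± 469), whereas those in D-LEC were 6748, 8137 and 7602 (7496 ± 700.4). The 3 ranges did not overlap, and the highest mean was less than 2 times the lowest. Tfpi was higher in LN-LEC than D-LEC (log2 fold change 0.73 with SE 0.09, adjusted p = 1.5e-05) and lower in D-LEC than LN-BEC (log2 fold change -0.41 with SE 0.09, adjusted p = 0.0029). The step between LN-LEC and LN-BEC was small (log2 fold change 0.33 with SE 0.09, adjusted p = 0.010) and was not called without LN-BEC replicate 3 (log2 fold change 0.28, adjusted p = 0.057, the highest of 20 alternatives that went down to 0.0023).

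The sequences before the starts of F8 and Procr, which were highest in LN-LEC, and of Plaur and Serpine2, which were highest in D-LEC, are shown to set these pairs side by side. They are RefSeq windows of 250 bases before the gene start on the GRCm38.p6 assembly, a later build than that of the counts, and 5 of the 9 members had an entry. Capitals mark matches on either strand to the GC box, the CACCC box, the AP-1 motif, the TATA box and the GATA core, spelled out after the windows, with overlapping matches counted. Every window is written 5′ to 3′ along the gene's strand.
F8, chrX:75380042-75380291, minus strand: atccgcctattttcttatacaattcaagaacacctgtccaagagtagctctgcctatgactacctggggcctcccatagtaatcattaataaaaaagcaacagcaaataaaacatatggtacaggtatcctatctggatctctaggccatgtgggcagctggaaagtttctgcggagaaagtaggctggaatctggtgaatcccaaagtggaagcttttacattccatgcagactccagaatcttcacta
Procr, chr2:155750967-155751216, plus strand: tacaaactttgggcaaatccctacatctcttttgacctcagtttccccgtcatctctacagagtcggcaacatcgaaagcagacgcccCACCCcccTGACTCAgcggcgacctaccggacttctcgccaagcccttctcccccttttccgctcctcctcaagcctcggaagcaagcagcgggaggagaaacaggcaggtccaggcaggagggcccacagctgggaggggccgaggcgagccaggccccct
Plaur, chr7:24462233-24462482, plus strand: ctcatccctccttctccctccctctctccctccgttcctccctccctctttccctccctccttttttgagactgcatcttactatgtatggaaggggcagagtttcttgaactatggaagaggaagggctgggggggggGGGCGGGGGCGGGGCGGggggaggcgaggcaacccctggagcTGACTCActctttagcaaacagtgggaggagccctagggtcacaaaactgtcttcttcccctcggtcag
Serpine2, chr1:79858666-79858915, minus strand: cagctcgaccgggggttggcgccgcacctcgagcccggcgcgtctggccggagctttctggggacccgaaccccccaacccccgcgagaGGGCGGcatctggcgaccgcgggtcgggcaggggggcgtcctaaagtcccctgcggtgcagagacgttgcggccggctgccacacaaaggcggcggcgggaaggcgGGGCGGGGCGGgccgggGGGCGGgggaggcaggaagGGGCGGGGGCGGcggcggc
The F8 window held none of these motifs and was 42.8% G and C, against 61.6% in Procr, 59.6% in Plaur and 78.8% in Serpine2. The GC box, spelled GGGCGG, was found 6 times in Serpine2, 3 times in Plaur and in neither F8 nor Procr, and 32.7% of 32851 windows of the same length in the RefSeq table held it. The AP-1 motif, spelled TGANTCA, was found in Procr, starting at base -154 from the gene start, and in Plaur, starting at base -69. It was in 6.75% of all windows. The box spelled CACCC occurred 1 time in these 4 windows, in Procr, and 52.01% of all windows held it. The TATA box, spelled TATAAA and present in 12.4% of all windows, was in none of these 4. The GATA core, spelled GATAA and present in 22.6%, was also in none of them. The Ets core, spelled GGAA and not marked, was found 4, 3, 6 and 2 times in F8, Procr, Plaur and Serpine2 and at least 1 time in 93.5% of all windows. Tfpi, which was also highest in LN-LEC, had 2 windows in the RefSeq table, not printed here. Each held 1 GC box and 1 CACCC box, and 1 of them also held a GATA core and the other a TATA box. The GC box was thus not found in the F8 and Procr windows and was found in those of Tfpi, Plaur and Serpine2. These are matches of letters, and binding was not measured.

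Of the fibrinolysis genes, Plau, Plaur and Serpine2 were each several-fold higher in D-LEC than in either lymph node population, and Plat was lowest in LN-BEC. Plau, the urokinase-type activator, lies on chromosome 14 (mm9, chr14:21655884-21662610, plus strand), with 11 exon blocks and 2343 exon bases. D-LEC had values of 1669, 2367 and 1599 (1878 ± 425, n = 3). In LN-BEC the libraries held 151, 107 and 182 (147 ± 37.4, n = 3), and in LN-LEC they held 121, 124, 92.7 and 123 (115 ± 15.1, n = 4). D-LEC stood apart, and the lymph node populations overlapped. Plau was 16-fold lower in LN-LEC than D-LEC (log2 fold change -4.00 with SE 0.19, adjusted p = 3.5e-09) and 12.8-fold higher in D-LEC than LN-BEC (log2 fold change 3.68 with SE 0.21, adjusted p = 1.5e-08). LN-LEC and LN-BEC did not pass the test (log2 fold change -0.32 with a 95% interval of -0.76 to 0.11, adjusted p = 0.24).

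Plaur, the receptor that holds urokinase at the cell surface, was arranged in the same way. It lies on chromosome 7 (mm9, chr7:25247519-25260892, plus strand), with 7 exon blocks and 1396 exon bases. In the D-LEC libraries, values were 2669, 4012 and 3288 (3323 ± 672). LN-LEC had values of 751, 729.96, 672 and 951 (776 ± 121), and LN-BEC had 565, 598 and 768 (643 ± 109). Every D-LEC library was above every lymph node library, and LN-LEC and LN-BEC overlapped. Plaur was 4.22-fold lower in LN-LEC than D-LEC (log2 fold change -2.08 with SE 0.16, adjusted p = 4.3e-07) and 5.16-fold higher in D-LEC than LN-BEC (log2 fold change 2.37 with SE 0.18, adjusted p = 2.8e-07). The lymph node populations did not pass the test (log2 fold change 0.29 with a 95% interval of -0.07 to 0.65, adjusted p = 0.19).

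Serpine2, the serpin that inhibits thrombin, urokinase and tissue-type activator, had the highest mean level per kilobase of the 4 fibrinolysis genes in D-LEC. It lies on chromosome 1 (mm9, chr1:79790896-79855240, minus strand), with 9 exon blocks and 2055 exon bases. D-LEC had values of 5164, 5876 and 6624 (5888 ± 730.2). Values in LN-BEC were 783, 677 and 602 (687 ± 91.3), whereas those in LN-LEC were 556, 465, 419.5 and 539 (495 ± 63.9). The order was D-LEC, LN-BEC, LN-LEC, without overlap. Serpine2 was 11.7-fold lower in LN-LEC than D-LEC (log2 fold change -3.55 with SE 0.13, adjusted p = 1.0e-10) and 8.53-fold higher in D-LEC than LN-BEC (log2 fold change 3.09 with SE 0.14, adjusted p = 6.9e-10). The small step between the lymph node populations (log2 fold change -0.46 with SE 0.13, adjusted p = 0.010) was not called without LN-BEC replicate 1 (log2 fold change -0.36, adjusted p = 0.065, the highest of 20 alternatives that went down to 0.0030).

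Plat, the tissue-type activator, had a LN-LEC library that stood apart from the other 3. It lies on chromosome 8 (mm9, chr8:23868216-23893320, plus strand), with 14 exon blocks and 2532 exon bases. In the D-LEC libraries, values were 2113, 2516 and 2310.2 (2313 ± 202). In LN-LEC the libraries held 1108, 1173, 1091 and 2246 (1404 ± 562), and in LN-BEC they held 626, 446 and 718 (597 ± 138). LN-LEC replicate 4 lay within the range of D-LEC, the other 3 LN-LEC libraries lay below it, and LN-BEC lay below all others. Plat was 2.39-fold higher in LN-LEC than LN-BEC (log2 fold change 1.26 with SE 0.29, adjusted p = 0.0066) and 3.87-fold higher in D-LEC than LN-BEC (log2 fold change 1.95 with SE 0.30, adjusted p = 5.6e-04). The log2 fold change of LN-LEC over LN-BEC was 0.93 without LN-LEC replicate 4 (adjusted p = 2.1e-04). LN-LEC against D-LEC did not pass the test (log2 fold change -0.69 with a 95% interval of -1.31 to -0.08, adjusted p = 0.064). Without LN-LEC replicate 4 the log2 fold change was -1.02 and was called (adjusted p = 7.3e-05), and over 20 alternatives the adjusted p ran from 6.8e-06 to 0.16, with 4 of 20 called.

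Other measurements also differed between the libraries of a population. Within D-LEC, replicate 2 had the lowest mesothelial marker sum (717, against 1897 and 2190.4 in replicates 1 and 3) and the highest Plat, Plau and Plaur. It also had the highest immediate early sum (288372, against 259010 and 271863 in replicates 1 and 3). The fibroblast and reticular cell sum was lowest in D-LEC replicate 2 (2498, against 7482 and 4668 in replicates 1 and 3). Serpine2 was highest in replicate 3, which had the highest mesothelial and skeletal muscle sums. The part of RNA from those cells in the 4 genes was not tested. The immediate early sum was 91654 in LN-LEC replicate 4 and 33288 to 43643 in the other LN-LEC libraries. Among LN-LEC, Vwf, Plat and Plaur were each highest in replicate 4, and F8, Procr and Tfpi were each lowest there. The blood endothelial marker sum was also highest in LN-LEC replicate 4 (20506.5, against 17532.9 to 19523.8 in the other LN-LEC libraries). Every LN-BEC library had a higher immediate early sum than every LN-LEC library. Between these populations Vwf was higher in LN-BEC, F8, Procr, Tfpi and Plat were higher in LN-LEC, and Plaur was not called. F8, Procr and Tfpi were lowest in D-LEC, where the sum was highest. Their order over the 3 populations was thus the reverse of that of the immediate early sum. Population and immediate early sum cannot be told apart in any of the 3 comparisons. The part of immediate early induction in these values was not tested. With LN-LEC replicate 4 and LN-BEC replicate 3 both left out, Plau, Plaur and Serpine2 were called higher in D-LEC than both lymph node populations. Those libraries had the highest immediate early sums of their populations, and every D-LEC sum lay above those of the remaining libraries. This setting therefore cannot tell tissue and immediate early sum apart.

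Compared by mean level per kilobase of exon, Thbd was the highest of the 9 genes in each population, at 9502 ± 376 normalized counts per kb in LN-LEC, 12549.7 ± 1128 in D-LEC and 14477 ± 369 in LN-BEC. On that scale it was above at least 99.0% of the tested genes in every population. The second place changed with the population. It was held by F8 in LN-LEC (7765 ± 1226 per kb, above 98.7% of tested genes), by Tfpi in LN-BEC (2622 ± 124 per kb) and by Serpine2 in D-LEC (2865 ± 355 per kb). These places are those of the means. In LN-LEC replicate 3, F8 (9061 per kb) stood above Thbd (8977 per kb). In D-LEC replicate 2, Plaur (2874 per kb) stood above Serpine2 (2860 per kb). Vwf had the lowest level of the 9 in LN-LEC (14.4 ± 5.0 per kb) and in D-LEC (18.6 ± 5.57 per kb), while in LN-BEC (719.6 ± 61.3 per kb) it was above 82.7% of tested genes. In LN-BEC the lowest was Plau (62.5 ± 16 per kb).

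**Figure D3:**
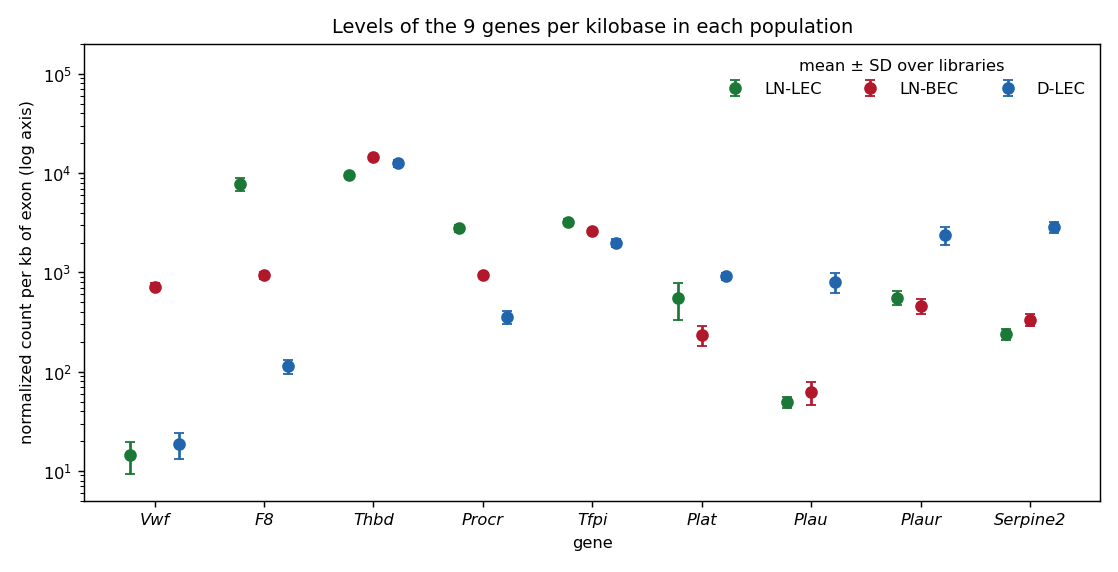
Levels of the 9 genes as normalized counts per kilobase of exon (log axis), mean ± SD over the libraries of each population. Thbd is highest in all 3 populations, and the place below it is taken by F8 in LN-LEC, Tfpi in LN-BEC and Serpine2 in D-LEC.

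Ratios of 2 genes within a library do not depend on the scaling between libraries, and they are given per kilobase as a description without a test. The ratio of F8 to its carrier Vwf was 599 ± 234 in LN-LEC (range 283 to 841), 6.27 ± 1.07 in D-LEC (5.46 to 7.48) and 1.31 ± 0.213 in LN-BEC (1.18 to 1.55). In LN-BEC the levels of the 2 transcripts were thus of similar size, and F8 exceeded Vwf in all 10 libraries. The ratio of Procr to Thbd was 0.295 ± 0.0341 in LN-LEC, 0.0283 ± 0.00205 in D-LEC and 0.0647 ± 0.00423 in LN-BEC. The ratio of the activators, Plat to Plau, fell from 11.2 ± 3.90 in LN-LEC over 3.79 ± 0.110 in LN-BEC to 1.16 ± 0.177 in D-LEC, where both transcripts were near the same level per kb. Without LN-LEC replicate 4, which had the highest Plat to Plau ratio, the LN-LEC mean was 9.37. The ratio of Plau to its receptor was 0.0892 ± 0.0113 in LN-LEC, 0.338 ± 0.0430 in D-LEC and 0.136 ± 0.0264 in LN-BEC, and the receptor exceeded the ligand in every library. Serpine2 relative to the sum of Plat and Plau was 0.426 ± 0.113 in LN-LEC, 1.69 ± 0.303 in D-LEC and 1.17 ± 0.340 in LN-BEC. That last ratio overlapped between LN-BEC and D-LEC, and the other 4 ratios did not overlap between any of the 3 populations.

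**Figure D4:**
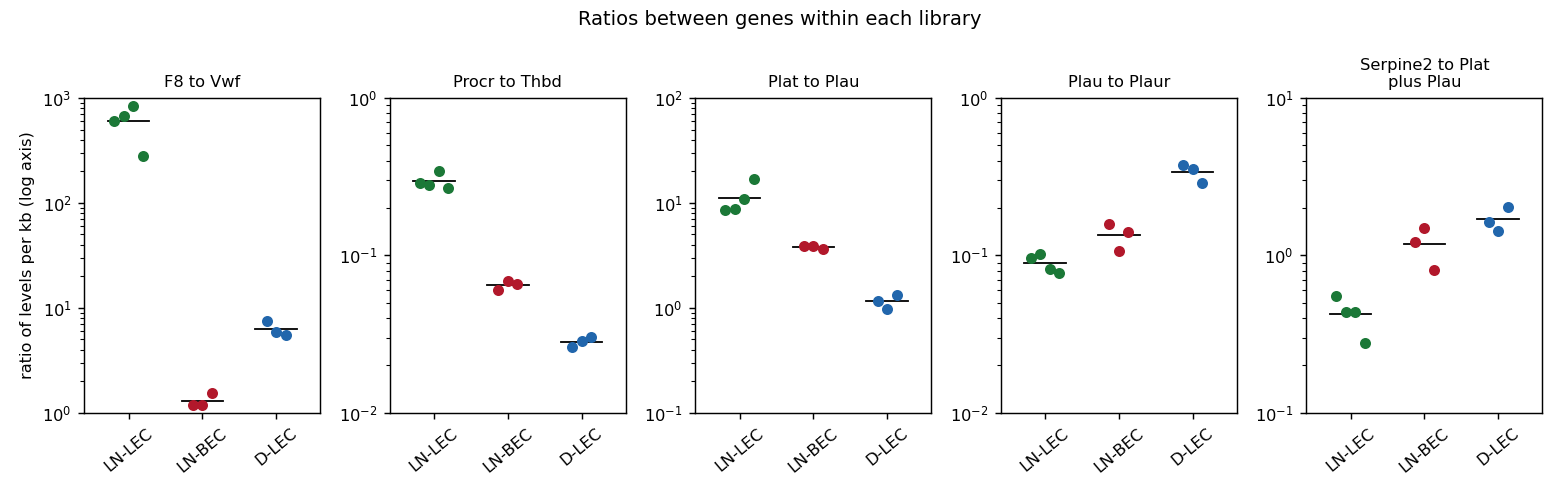
Ratios between genes within each library, from levels per kilobase (log axes that differ between panels). Points are libraries in replicate order and lines are means over the libraries of a population. The first 4 ratios separate all 3 populations, and Serpine2 to Plat plus Plau overlaps between LN-BEC and D-LEC.

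The other genes of these systems were described from 6 lists, beside the shares of all tested genes given above. Of 13 tested clotting factors and initiators, 2 were called between LN-LEC and LN-BEC (1 higher in each), 3 between LN-LEC and D-LEC (all higher in LN-LEC) and 3 between D-LEC and LN-BEC (all higher in LN-BEC). F5, the cofactor of activated factor X that is related to factor VIII, was at 419.9 ± 61.5 in LN-LEC, 24 ± 10.2 in D-LEC and 37.0 ± 13.4 in LN-BEC. It was higher in LN-LEC than LN-BEC (log2 fold change 3.52 with SE 0.31, adjusted p = 7.8e-07) and D-LEC (log2 fold change 4.18 with SE 0.33, adjusted p = 2.3e-07), and it is also a platelet product, whose marker sums stand above. F2, prothrombin, was at 214 ± 34.3 in LN-LEC, 46.3 ± 15.4 in D-LEC and 132 ± 51.4 in LN-BEC and was lower in D-LEC than LN-LEC (log2 fold change 2.23 with SE 0.30, adjusted p = 3.7e-05) and LN-BEC (log2 fold change -1.52 with SE 0.31, adjusted p = 0.0011). F10 was at 28.8 ± 10.6 in LN-BEC and 0.600 ± 0.695 in LN-LEC and was called (adjusted p = 6.6e-05). F7 was at 10.4 ± 2.39 in LN-BEC and 2.96 ± 1.67 in LN-LEC and was not called between them (adjusted p = 0.059). The levels of F10 and F7 were both low. F3, tissue factor, which starts clotting and is the target of Tfpi, was at 55.9 ± 27.8 in LN-LEC, 47.4 ± 21.0 in D-LEC and 55.1 ± 42.8 in LN-BEC and was called in no comparison (adjusted p = 0.97, 0.78 and 0.82), with a wide spread.

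Of 9 tested anticoagulants, 3 were called between the lymph node populations (2 higher in LN-LEC), 6 between LN-LEC and D-LEC (4 higher in D-LEC) and 5 between D-LEC and LN-BEC (4 higher in D-LEC). Pros1, protein S, the cofactor of both activated protein C and Tfpi, was at 33409 ± 4007 in LN-LEC, 56013 ± 3373 in D-LEC and 16681 ± 1437 in LN-BEC. It was higher in D-LEC than LN-LEC (log2 fold change -0.72 with SE 0.11, adjusted p = 8.9e-05) and higher in LN-LEC than LN-BEC (log2 fold change 1.02 with SE 0.11, adjusted p = 5.7e-06). The order of Pros1 was therefore the reverse of that of Tfpi and Procr between the LEC populations. Gas6, a relative of protein S, had the same order as Pros1, at 15802 ± 3890.1 in D-LEC, 9020.4 ± 1142 in LN-LEC and 5546 ± 1240.1 in LN-BEC, with all 3 comparisons called. Tfpi2, a relative of Tfpi that inhibits plasmin and other proteases, was at 256 ± 51.8 in LN-LEC, 1622 ± 306 in D-LEC and 465 ± 18.0 in LN-BEC. It was higher in D-LEC than LN-LEC (log2 fold change -2.63 with SE 0.15, adjusted p = 9.6e-09), opposite to Tfpi. Anxa5, which covers exposed phosphatidylserine, was at 11697 ± 1769.8 in D-LEC and 8039 ± 949 in LN-LEC (log2 fold change -0.52 with SE 0.12, adjusted p = 0.0027).

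The 4 protease-activated receptors differed in the population where they were highest. F2r (PAR1), the main thrombin receptor, was at 28102 ± 4906 in LN-LEC, 9436 ± 1239.8 in D-LEC and 22339.8 ± 1225 in LN-BEC, lower in D-LEC than in both (adjusted p = 6.0e-07 and 8.0e-06). F2rl1 (PAR2), which responds to trypsin-like proteases and the tissue factor complex rather than thrombin, was at 7671 ± 824 in D-LEC, 163 ± 26.3 in LN-LEC and 158 ± 35.5 in LN-BEC. Its log2 fold change was -5.52 for LN-LEC over D-LEC (adjusted p = 2.0e-11) and 5.60 for D-LEC over LN-BEC (adjusted p = 4.2e-11). F2rl3 (PAR4) was at 128 ± 22.7 in LN-BEC, 10.3 ± 2.70 in LN-LEC and 6.03 ± 0.262 in D-LEC, and F2rl2 (PAR3) at 28.4 ± 5.37, 4.20 ± 0.778 and 9.53 ± 1.05. Both were called higher in LN-BEC than LN-LEC and in D-LEC.

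Of 14 tested genes around plasminogen, 6 were called between LN-LEC and LN-BEC (4 higher in LN-LEC), 5 between LN-LEC and D-LEC (3 higher in D-LEC) and 6 between D-LEC and LN-BEC (3 in each direction). Anxa2 and S100a10, which form the annexin A2 complex that binds plasminogen and Plat, were both highest in D-LEC. Anxa2 was at 19057 ± 836 in D-LEC, 5266 ± 1102 in LN-LEC and 6938 ± 166 in LN-BEC (log2 fold change -1.83 with SE 0.13, adjusted p = 4.8e-08, LN-LEC over D-LEC). S100a10 was at 15602 ± 519, 5842 ± 721 and 4643 ± 703 in the same order of populations (log2 fold change -1.40 with SE 0.11, adjusted p = 2.4e-07). Serping1, the C1 inhibitor, was highest in D-LEC too, with a level of 6169 ± 466 there and 1852 ± 379 in LN-LEC (log2 fold change -1.71 with SE 0.32, adjusted p = 0.0024). Plg, plasminogen itself, was at 0.471 ± 0.943 in LN-LEC and 1.03 ± 0.219 in D-LEC and at 0 in LN-BEC, too low to compare at this depth.

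**Figure D5:**
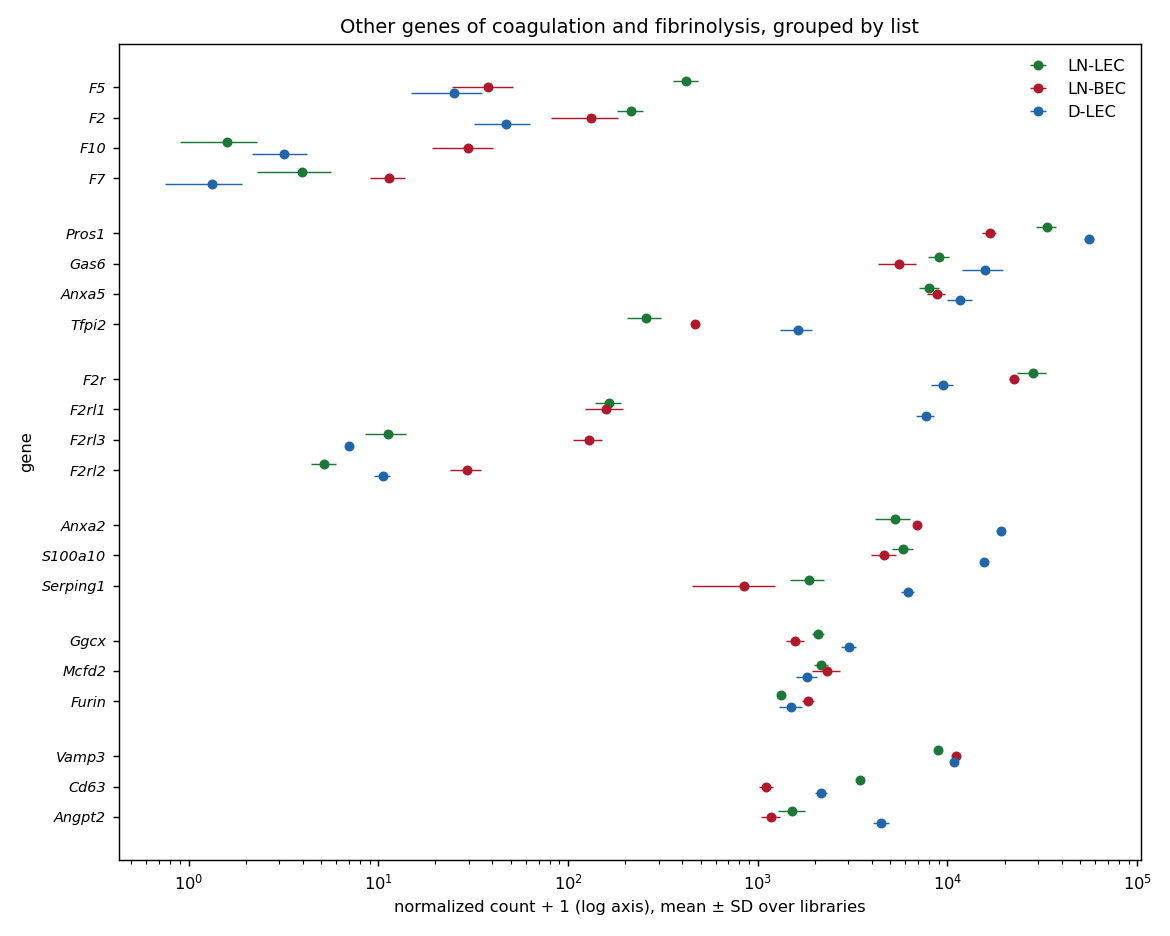
Normalized counts plus 1 (log axis) of other coagulation and fibrinolysis genes, mean ± SD over the libraries of each population, grouped from top to bottom as clotting factors, anticoagulants, protease-activated receptors, plasminogen regulators, secretion and carboxylation factors and Weibel-Palade body genes. Levels are not scaled for gene length, so populations are compared within a gene. F5 is apart in LN-LEC, F2rl1, Anxa2 and S100a10 are apart in D-LEC, and F2rl3 is apart in LN-BEC.

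Factor VIII leaves the endoplasmic reticulum with the help of a cargo receptor, and Vwf is stored in Weibel-Palade bodies, the secretory granules of endothelial cells. Of 7 genes of secretion, carboxylation and Vwf cleavage, 2, 1 and 3 were called in the 3 comparisons (1 higher in each lymph node population, then 1 higher in D-LEC than LN-LEC, then 1 with D-LEC and 2 with LN-BEC above). Mcfd2, a part of the receptor that carries factor VIII out of the endoplasmic reticulum, was at 2163 ± 182 in LN-LEC, 1822 ± 224 in D-LEC and 2327 ± 398 in LN-BEC, a narrow range beside that of F8. Mcfd2 was called only between D-LEC and LN-BEC, with LN-BEC above, as for F8. Furin, which cleaves the Vwf propeptide, was at 1849 ± 134 in LN-BEC and 1323 ± 64.8 in LN-LEC (log2 fold change -0.47 with SE 0.10, adjusted p = 0.0016). Ggcx, the vitamin K-dependent carboxylase that modifies protein S and Gas6, was at 3031 ± 283 in D-LEC, 2081 ± 157 in LN-LEC and 1578 ± 172 in LN-BEC, in the order of Pros1 and Gas6.

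Of 16 genes of Weibel-Palade body cargo and exocytosis, 9 were called between LN-LEC and LN-BEC (4 higher in LN-LEC and 5 in LN-BEC), 9 between LN-LEC and D-LEC (5 and 4) and 8 between D-LEC and LN-BEC (4 and 4). The list did not follow Vwf as a whole. Cd63, a membrane protein of these bodies, was at 3465 ± 165 in LN-LEC, 2154 ± 149 in D-LEC and 1107 ± 90.3 in LN-BEC, lowest where Vwf was highest (log2 fold change 1.66 with SE 0.09, adjusted p = 6.1e-09). Angpt2, a Tie2 ligand stored with Vwf, was at 4482 ± 439.9 in D-LEC, 1524 ± 253 in LN-LEC and 1176 ± 137 in LN-BEC (log2 fold change 1.92 with SE 0.14, adjusted p = 6.3e-08, D-LEC over LN-BEC). The vesicle protein Vamp3 ranged from 8967 ± 284 in LN-LEC to 11069.6 ± 79.7 in LN-BEC. Selp and Myrip, named here after their values were seen, did follow Vwf between the lymph node populations. Selp, P-selectin, was at 1191 ± 156 in LN-BEC, 164 ± 29.5 in LN-LEC and 46.2 ± 17.7 in D-LEC, and Myrip, a Rab27a effector of Vwf release, at 1589.8 ± 118, 275 ± 58.4 and 4.33 ± 5.55. Both were also called higher in LN-LEC than D-LEC, where Vwf was not called (adjusted p = 2.5e-05 and 4.0e-07).

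For each gene the 3 most similar profiles over the 10 libraries were found among 11105 genes, as the smallest root mean square difference of centred log2 levels, given in parentheses. The profiles of F8 were closest to Cxcl10 (0.352), Cxcl16 (0.369) and Hs3st3a1 (0.374), of which Cxcl10 and Cxcl16 are chemokines. Those of Vwf were closest to Palmd (0.358), Thrsp (0.409) and Pltp (0.434), and those of Procr to Cyba (0.122), Zbp1 (0.153) and Il27ra (0.159). Plau and Serpine2 were the members nearest to each other (0.366), with 5 genes nearer to Plau and 7 nearer to Serpine2. Plau was closest to Arhgap6 (0.272), Slc45a4 (0.28) and Tc2n (0.342), and Serpine2 to Tspan18 (0.263), Ggct (0.274) and Nbl1 (0.289). Plaur was closest to Nr1h3 (0.207), Fblim1 (0.231) and Appl2 (0.240), and Plat to Cald1 (0.212), Prss23 (0.223) and Dnajb4 (0.263). Thbd and Tfpi, which varied little, had close neighbours in Slk (0.0618), Mbnl2 (0.0741) and Dock1 (0.0757) and in Rnf135 (0.0725), Zfp516 (0.0749) and Pdcd2 (0.0797).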

How the data were processed

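RNA of sorted mouse endothelial cells was amplified (Ovation RNA-Seq V2) and sequenced as read pairs. After trimming, the authors used STAR to align the reads to mm9 and featureCounts 1.4.4 to assign fragments to the exons of each gene symbol, with both ends mapped, strand ignored and multi-mapping fragments left out. The deposited values are these raw counts, with an exon length per gene used here for levels per kilobase. None of the 9 genes shared exon bases with another gene of the table. Columns of samples outside the series were 0.

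Each population was compared with edgeR 4.0.16 (TMM, quasi-likelihood F test, R 4.3.3) on all 10 libraries, with 1 mean per population and Benjamini-Hochberg adjustment over 15359 genes. These were named symbols (no Gm, Rik, LOC or clone names) whose normalized count averaged at least 1 in some population. A standard error is the size of the log2 fold change over the root of its F statistic. Levels are counts divided by DESeq2 1.42.0 size factors. Genes of the other lists were named if F3 or Plg, or if among the 4 highest of a list that were called at least 1 time, and some genes that this rule names are not reported here. For similar profiles, log2 used a pseudocount of 1 and genes of mean at least 50. The scripts were tested on simulated data. Total counts per library ran from 22429940 to 48906070 fragments. Pairs of libraries of a population differed by 10.5 to 391 times counting error in chi-square per gene, so none was a duplicate, and precision rests on the spread between libraries. In LN-LEC, pairs with replicate 4 were at 119 to 155 and the other pairs at 10.5 to 19.0. In LN-BEC, pairs with replicate 3 were at 314 and 391 and the other pair at 26.6. The D-LEC pairs were at 29.1 to 42.1. Replicate numbers follow deposit order, and the labels give no batch. The members and lists were chosen with earlier results of these data known. Promoters came from RefSeq and motifs were counted with Python 3.11.15. Alternatives were DESeq2, limma-voom (limma 3.58.1), other scalings and filters, and leaving out libraries.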

Additional observations from a re-analysis of the deposited data

Results flagged for a closer look

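Within the 4 LN-LEC libraries, 14 sets of values were checked for a sample far from the others, and chance alone flags about 1 set in 20. The Plat normalized count in LN-LEC replicate 4 was 2245.5, while the other 3 libraries lay between 1091 and 1173, and the gap was 0.929 of the range. The Plau normalized count in LN-LEC replicate 3 was 92.7, below 121 to 124 in the other 3, with a gap of 0.878 of the range.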

How the results depend on the processing

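The 27 log2 fold changes of the 9 genes were recomputed under 20 alternatives, and 530 of 540 values kept their direction and their side of the threshold. None reversed. LN-LEC against D-LEC was called for Plat by DESeq2 (log2 fold change -0.71) and limma-voom (-0.74), and for Vwf and Plat without LN-LEC replicate 4. Leaving out 1 library at a time, the number of the 9 genes called ran from 6 to 7 for LN-LEC against LN-BEC, from 7 to 9 for LN-LEC against D-LEC, and stayed at 8 for D-LEC against LN-BEC. No paired analysis was possible because the labels give no replicate numbers shared between populations. Genes near 0, such as Plg, are limited by depth.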
